A study of Arabidopsis thaliana with 6 samples.

Results

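Transcript signals of cytochrome P450 (CYP) and UDP-glycosyltransferase (UGT) genes were compared between the Arabidopsis thaliana mutant sni1 and wild type. The SNI1 protein is known to hold back defence genes of systemic acquired resistance, a state that depends on salicylic acid. The mutant plants were sni1, which the labels describe as a radiation-induced mutation assigned to AT4G18460 in the Col-0 background, and the plants they were set against were Col-0 wild type, with 3 arrays per genotype. Both genotypes were at growth stage 3.90, after 3 days at 4 °C as seeds and growth on soil at 22 °C, and whole plants were sampled. The labels name neither separate sowings nor separate plants behind the arrays, so the p-values rest on the spread among these arrays, and that spread may be technical.

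Members were all genes whose symbol in the platform annotation is CYP or UGT followed by a digit, taken from probe sets with 1 gene each. A probe set is the group of short probes that measures 1 transcript on the Affymetrix ATH1 array. This gave 73 of the 13350 symbols that the annotation assigns to single genes, each with 1 probe set, and all 73 matched a locus of the TAIR10.1 assembly. In the RefSeq synonyms 2 of the 73, CYP59 (AT1G53720) and CYP71 (AT3G44600), are cyclophilins and not P450s, so the label holds for the other 71, which are 24 P450s and 47 UGTs. Of the P450s 19 belong to the CYP71B subfamily, and the UGTs fall into 11 families. Many P450s and UGTs of Arabidopsis have no entry under such a symbol in this annotation and were not analysed here.

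P450s are haem enzymes, most of them bound to the endoplasmic reticulum, that insert an oxygen atom into small molecules with electrons from a reductase. UGTs are soluble enzymes that attach a sugar from a nucleotide donor to hydroxyl, carboxyl, amino or thiol groups, often on the product of a P450. Both superfamilies make and inactivate plant hormones and build phenylpropanoids, glucosinolates, camalexin and many detoxified compounds, and both contain large tandem arrays of near neighbours in the genome.

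All values are MAS5 signals on a linear scale, which the authors had scaled to the same trimmed mean on every array. The medians of the arrays ran from 34.6 to 40.8, and the 10th percentile was 1.89 in sni1 replicate 3 and 1.81 in wild-type replicate 3, against 3.34 to 4.31 in the other arrays. Fold changes are differences of log2(signal + 2.87), where 2.87 is the 10th percentile of all values, so changes of low signals are understated. Tests were made with limma over all 22746 probe sets that are not array controls, two-sided, and p-values were adjusted by Benjamini-Hochberg and called under 0.05. AT4G18460, the locus named in the labels, had a signal of 35 ± 8.35 in sni1 and 39.4 ± 2.01 in wild type (SD, n = 3 each). This difference did not pass the test (limma adjusted p = 0.961). SNI1 is a different gene beside that locus, and no signal was read for it. The value of AT4G18460 therefore does not show whether the mutation altered the SNI1 transcript. Genes of the marker lists count as measured only where the annotation gives a probe set with 1 gene, and the array may hold signals for others. Of 7 leaf and photosynthesis markers 4 were measured, with signals from 2796 to 6091. Their log2 fold changes lay between -0.47 and -0.11, none past the test with or without the replicate block. All 4 were lower in sni1 in every same-numbered pair, LHCB4.2 and PSBY did not overlap between the genotypes, and these 2 passed as lower when the block was combined with a filter on low signals (limma adjusted p = 0.0125 and 0.0202). Their part in the results was not tested. Of 6 root markers PYK10 and PRX72 were measured, of 7 flower markers only A9, and of 4 seed markers none. Those measured had mean signals under 24.5, the 40th percentile of all means. Their log2 fold changes were 0.86 for PYK10, -0.14 for PRX72 and 0.64 for A9, none past the test with or without the block. A9 did not overlap between the genotypes and was higher in sni1. In whole plants, fewer cells of a type and less transcript per cell cannot be told apart.

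A rise of UGT87A2 and CYP71B23 in sni1 was the change that passed the test among the members. UGT87A2 was 3.22 times and CYP71B23 4.78 times as high in sni1 as in wild type by the ratio of mean signals. Differences of 38 of the 73 members lay within 0.3 of 0 on the log2 scale. In limma without a block, 2 of 73 members were higher, against 0.224% of all probe sets. As lower, 0 of 73 were called, against 0.0044% of all probe sets. Before adjustment, p was under 0.05 for 9 members that were higher (4.19% of all probe sets) and for 1 that was lower (2.73%). Same-numbered arrays of the genotypes deviated together, and with the replicate number as a block 2 members were higher and 1, UGT76C2, was lower, against 2.73% and 1.28% of all probe sets. Those shares of the members were near the background. With quantile normalization added to the block, 3 members were higher and 1 lower, against 2.99% and 1.7% of all probe sets. Among the 34 members with a mean signal of at least 24.5, 2 were higher and 0 lower without the block, against 0.52% and 0.0293% of probe sets above that level. With the block 8 of these 34 were higher and 1 lower, against 6.15% and 3.88%. The 8 were CYP71B23, UGT87A2, CYP71B24, CYP71B36, UGT72E1, UGT73B1, UGT74D1 and UGT85A2.

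**Figure D1:**
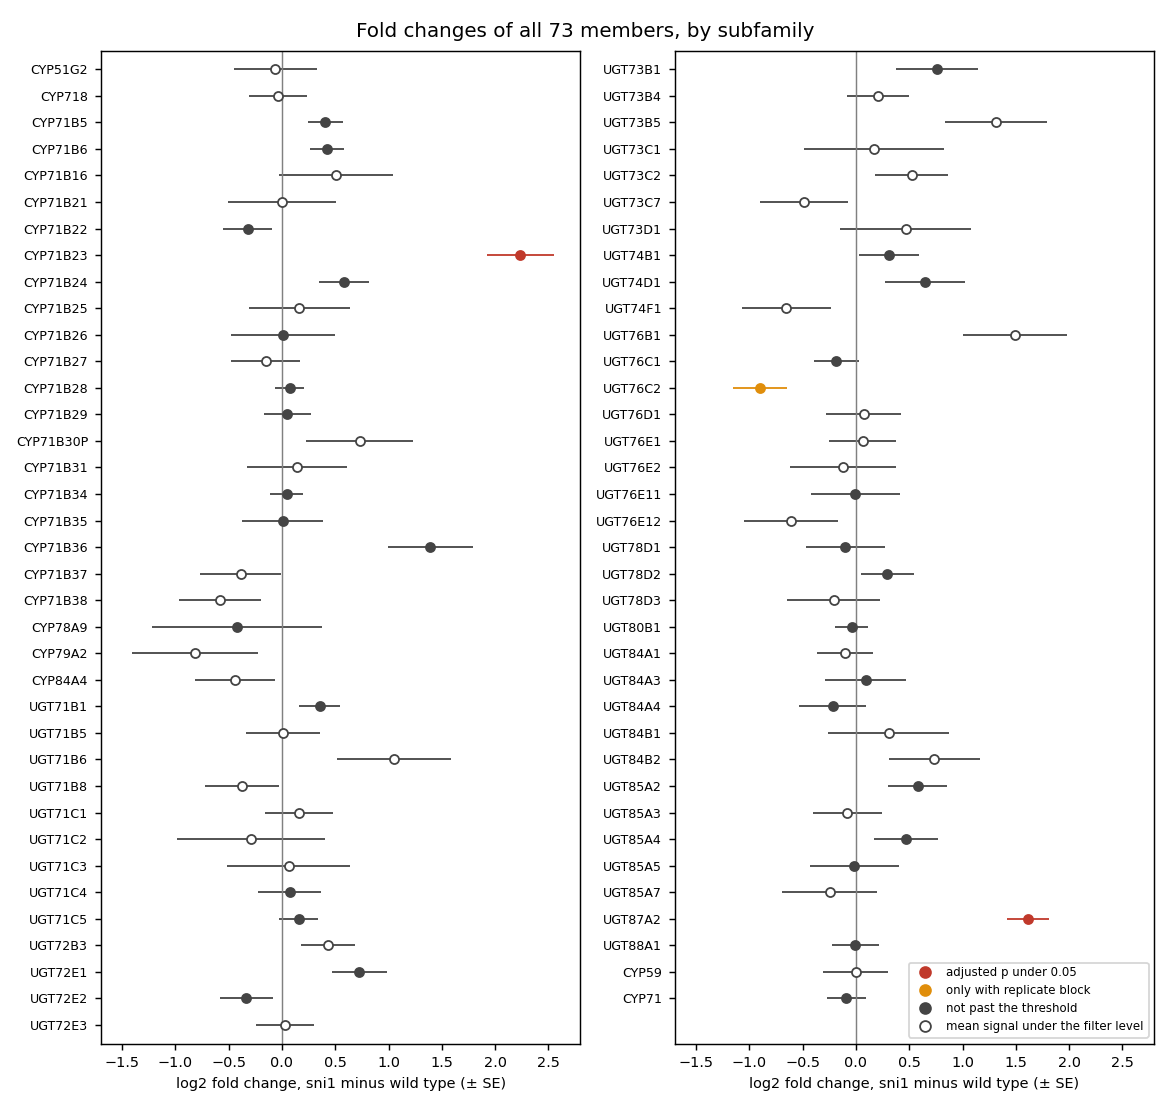
Log2 fold change of each of the 73 members (points, sni1 minus wild type on the log2(signal + 2.87) scale; bars are limma's SE without the block, n = 3 arrays per genotype), grouped by subfamily with the P450s first, then the UGTs and the 2 cyclophilins. CYP71B23 at 2.23 and UGT87A2 at 1.61 stand to the right in red, UGT76C2 at -0.90 passed only with the replicate block, and open points are members with a mean signal under 24.5.

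The median log2 fold change was 0.03 over the 24 P450s and 0.07 over the 47 UGTs, beside -0.02 over all probe sets. A positive value was found for 42 of 73 members (57.5%), against 47.7% of all probe sets. Signals were low for many members, 34 of which had a mean at or above 24.5 (12 P450s, 21 UGTs and the cyclophilin CYP71), or 46.6% beside 60.0% of all probe sets. Genotypes were fully separated, with no overlap between their arrays, in 9 members with higher and 2 with lower signal in sni1, against 6.4% and 6.07% of all probe sets.

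**Figure D2:**
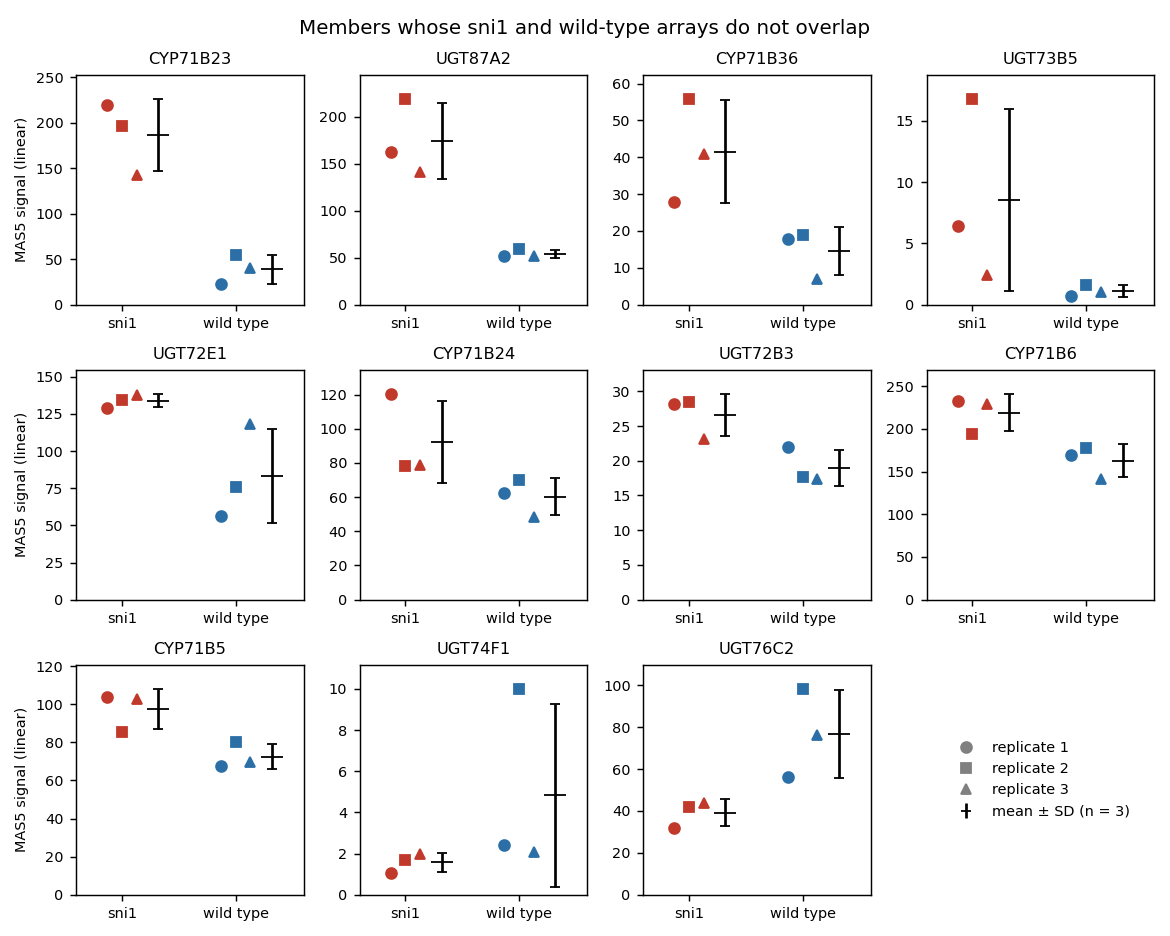
MAS5 signal (linear scale from 0) in each array for the 11 members whose genotypes did not overlap, sni1 in red at the left and wild type in blue at the right of each panel. Marker shapes are the replicate numbers, and black bars are mean ± SD (n = 3). UGT87A2 lay between 141 and 219 in sni1 and between 51.2 and 59.3 in wild type, while UGT73B5 and UGT74F1 had signals of at most 16.8.

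UGT87A2 (AT2G30140) encodes a glycosyltransferase known to affect flowering time through the floral repressor FLC. Its signal was 163, 219 and 141 in sni1 replicates 1 to 3, against 51.8, 59.3 and 51.2 in wild-type replicates 1 to 3. Every sni1 array lay above every wild-type array, and the same-numbered pairs differed by 1.6, 1.83 and 1.41 on the log2 scale. The mean was 174 ± 40.2 in sni1 and 54.1 ± 4.52 in wild type (SD, n = 3 each), a difference of 1.61 ± 0.20 on the log2 scale (SE; limma adjusted p = 0.0273). Leaving out any 1 of the 6 arrays without a block ended the call (adjusted p from 0.0649 to 0.160, log2 fold change from 1.44 to 1.75). With the replicate block the adjusted p was 0.000564, and it stayed between 0.000968 and 0.00338 when both arrays of a replicate number were left out.

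CYP71B23 (AT3G26210), a P450 of the large CYP71 family of plant secondary metabolism, had signals of 219.7, 197 and 142 in sni1 and of 22.2, 54.4 and 40.2 in wild type. The lowest sni1 array stood well above the highest wild-type array, and the widest gap was in replicate 1. Means were 186 ± 39.7 in sni1 and 39.0 ± 16.1 in wild type (SD, n = 3 each), and sni1 was higher by 2.23 ± 0.32 on the log2 scale (SE; limma adjusted p = 0.0471). As for UGT87A2, the call was lost with any single array left out and no block (adjusted p from 0.0802 to 0.296), and it was also lost after quantile normalization (0.0508). With the block it passed (adjusted p = 0.00296), and so it did without both arrays of each replicate number in turn (0.000483 to 0.00935).

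CYP71B23 lies in a run of 11 CYP71B members in the gene order of TAIR10.1, CYP71B16 to CYP71B37, in which at most 4 other genes stand between neighbouring members. The nearest members on either side had smaller differences, and the 1 gene between it and CYP71B24 was not analysed here. CYP71B22 (AT3G26200), the next gene on one side, had 35.9, 42.4 and 28.8 in sni1 against 51.5, 43.5 and 39.99 in wild type, a log2 fold change of -0.32 ± 0.23 (limma adjusted p = 0.904). On the other side, beyond 1 gene, CYP71B24 (AT3G26230) had 120.2, 78.3 and 78.8 in sni1 against 62.4, 70.1 and 48.4 in wild type. Its log2 fold change was 0.58 ± 0.23 (limma adjusted p = 0.650 unblocked and 0.115 blocked). It passed as higher in sni1 when the block was combined with the filter on low signals (0.0475). The CYP71B24 arrays of the genotypes did not overlap, and those of CYP71B22 did. Within each array, the log2 signal of CYP71B23 minus that of CYP71B22 was 2.29 ± 0.20 in sni1 and -0.27 ± 0.75 in wild type (SD, n = 3 each). This difference did not overlap between the genotypes, and its two-sided exact permutation p of 0.1 is the smallest that 3 against 3 arrays can give (0.15 after adjustment over 3 such pairs). The same comparison with CYP71B24 gave 0.99 ± 0.26 in sni1 and -0.66 ± 0.62 in wild type, with the same exact p. CYP71B23 had been called from these same arrays, so neither p-value is separate support for its change.

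CYP71B36 (AT3G26320), near the other end of the run, had the next largest difference among its members. Its signal was 27.9, 55.8 and 41 in sni1, against 17.7, 18.8 and 6.90 in wild type, with no overlap between the genotypes. The log2 fold change was 1.39 ± 0.40 (limma adjusted p = 0.422 unblocked and 0.0586 blocked), and it passed when the block was combined with quantile normalization (0.0324) or the filter on low signals (0.0170). The genes on either side differed less. CYP71B35 had 45.9, 45.0 and 30.4 in sni1 and 49.0, 59.3 and 20.8 in wild type, and CYP71B37 stayed at or under 5.45 in every array. Of this run 5 genes lay within 0.3 of 0, among them CYP71B26 (75.6 to 240.1 in sni1, 89.9 to 256 in wild type) and CYP71B34 (99.4 to 127 in sni1, 103 to 112 in wild type). CYP71B21 and CYP71B25 stayed at or under 8.70. CYP71B16 had 13.1, 0.950 and 2.01 in sni1 and 2.295, 2.25 and 1.06 in wild type, and its log2 fold change of 0.51 was -0.12 without sni1 replicate 1.

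**Figure D3:**
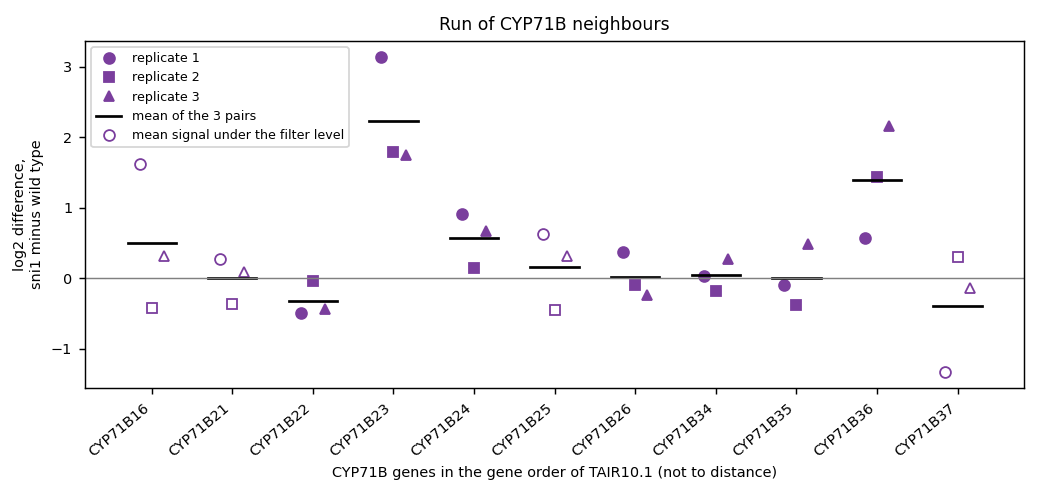
Log2 difference, sni1 minus wild type, for the 11 CYP71B members of the run in gene order (evenly spaced, not to distance). Marker shapes are the 3 same-numbered pairs, black lines their mean, and open markers are genes with a mean signal under 24.5. CYP71B23 stands at 2.23 and CYP71B36 at 1.39, while CYP71B22, CYP71B34 and CYP71B35 lie at or below 0.05.

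Among the 8 CYP71B genes outside this run, CYP71B6 and CYP71B5 had non-overlapping genotypes. CYP71B6 (AT2G24180) is known to convert indole-3-acetonitrile, a breakdown product of the indole pathway of defence compounds. It had 233, 194 and 229 in sni1 and 169.7, 177 and 141 in wild type, a log2 fold change of 0.42 ± 0.16 (limma adjusted p = 0.585 unblocked and 0.108 blocked). CYP71B5 (AT3G53280) had 104, 85.2 and 103 in sni1 and 67.6, 80.1 and 69.9 in wild type (0.41 ± 0.17; adjusted p = 0.665). Neither passed, although each was higher in all 3 same-numbered pairs. Next to CYP71B5, CYP71B30P (log2 fold change 0.73) and CYP71B31, known for the metabolism of floral linalool, had signals of at most 10.7 and 6.93. In another run, CYP71B28 was alike in the genotypes, with 149.5 to 163 in sni1 and 137 to 153 in wild type, and CYP71B29 had 35.2 to 49.3 in sni1 and 39.0 to 46.4 in wild type. CYP71B27 and CYP71B38 stayed at or under 18.2, with a log2 fold change of -0.58 for CYP71B38 (adjusted p = 0.892). Over the whole subfamily 14 values were positive and 5 negative, with a median of 0.07, and 5 of 19 members had non-overlapping genotypes, each with higher signal in sni1, against 6.4% of all probe sets higher and 6.07% lower.

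The 5 P450s of other families gave no calls. CYP78A9, of a subfamily known to promote organ and seed growth, had 31.0, 35.9 and 3.43 in sni1 and 23.8, 57.1 and 9.53 in wild type. Its 3 replicate numbers differed more than its genotypes, and its log2 fold change of -0.42 ± 0.79 changed sign without sni1 replicate 3 (0.42) or wild-type replicate 2 (0.15). CYP84A4, known from the synthesis of arabidopyrones, had 13.1, 10.14 and 27.6 in sni1 and 22.4, 18.4 and 26.5 in wild type (-0.44 ± 0.37). CYP79A2, which makes phenylacetaldoxime from phenylalanine for benzyl glucosinolate, was at or under 1.63 in every array except wild-type replicate 2 (16), and its log2 fold change of -0.82 stood at -0.084 without that array. CYP51G2, a paralogue of the sterol 14-demethylase, had 11.1 to 17.6 in sni1 and 8.88 to 25.6 in wild type, and CYP718 was at or under 1.79.

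Among the UGTs 12 are known to act on hormones or related signals, and 4 of these had a mean signal at or above 24.5. UGT76C2 (AT5G05860), known as the main enzyme of cytokinin N-glucosylation, which inactivates the hormone, had 31.7, 42.1 and 44.0 in sni1, against 56.2, 98 and 76.5 in wild type. All sni1 arrays lay below all wild-type arrays, and the pairs differed by -0.77, -1.17 and -0.76 on the log2 scale. The mean was 39.3 ± 6.64 in sni1 and 76.9 ± 20.9 in wild type (SD, n = 3 each). The log2 difference was -0.90 ± 0.25 (limma adjusted p = 0.397), and it passed as lower in sni1 with the replicate block (adjusted p = 0.0232). Without both arrays of replicate 2 or 3 the blocked call was lost (0.139 and 0.0807). Its adjacent gene UGT76C1 (AT5G05870), with the same known activity, had 63.8, 53.0 and 68.9 in sni1 and 76, 55.3 and 82.6 in wild type (-0.18 ± 0.21, adjusted p = 0.952). The genotypes overlapped in UGT76C1. The within-array log2 difference of UGT76C2 minus UGT76C1 was -0.63 ± 0.32 in sni1 and 0.09 ± 0.63 in wild type (SD, n = 3 each), with overlap between the genotypes and a two-sided exact permutation p of 0.2, where 0.1 is the smallest possible. Taken by same-numbered pairs, sni1 minus wild type of this difference was -0.53, -1.11 and -0.51, negative in all 3. UGT76C2 had been called with the block from these same arrays, so this comparison is no separate support for its change.

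The members known to conjugate salicylic acid and related defence signals had low signals. UGT76B1 (AT3G11340), which glucosylates salicylic acid, isoleucic acid and N-hydroxypipecolic acid, had 16.3, 11.3 and 4.34 in sni1, against 0.339, 0.784 and 4.69 in wild type. Replicates 1 and 2 differed by 2.58 and 1.95 on the log2 scale and replicate 3 by -0.07. The log2 fold change was 1.49 ± 0.49 (limma adjusted p = 0.519 unblocked and 0.172 blocked). In wild type 2 of 3 values lay under the array's own 10th percentile, and the log2 fold change was 0.67 with the 25th percentile as the added constant and 2.13 with a constant of 1. UGT74F1, which forms salicylic acid glucoside, had 1.07, 1.68 and 1.96 in sni1 and 2.43, 9.98 and 2.07 in wild type (-0.65 ± 0.42, adjusted p = 0.882). UGT71C3, known to act on methyl salicylate, and UGT76D1, known to act on dihydroxybenzoic acids, overlapped between the genotypes, with 1.30 to 9.97 and 9.06 to 19.8 in sni1 and 1.49 to 11.3 and 9.24 to 15.5 in wild type.

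UGT74D1, known to glucosylate auxins, had 93.7, 141 and 69.8 in sni1, against 47.6, 108 and 44.5 in wild type. It was higher in each same-numbered pair, by 0.94, 0.38 and 0.62 on the log2 scale, while the arrays of the genotypes overlapped because replicate 2 was high in both. Its log2 fold change was 0.64 ± 0.38 (limma adjusted p = 0.858 unblocked and 0.0528 blocked). UGT84B1 and UGT84B2, adjacent genes of which the first is known to make the auxin glucose ester, had signals of at most 12.2 and 8.39. Of the genes known to glucosylate abscisic acid, UGT71C5 overlapped between the genotypes, at 95.5 to 141 in sni1 and 97 to 116 in wild type. UGT71B6 had 9.93, 10.6 and 3.47 in sni1 and 0.434, 0.695 and 7.68 in wild type (1.05 ± 0.53, adjusted p = 0.810). Replicate 3 of UGT71B6 went the other way from replicates 1 and 2, as in UGT76B1. UGT73C1, known to glucosylate cytokinins at the side chain, stayed at or under 12.6.

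Known roles put 10 members in phenylpropanoid and flavonoid metabolism, and none passed without or with the block over all probe sets. With the block and the filter on low signals UGT72E1 passed as higher in sni1 (limma adjusted p = 0.0204). UGT72E1 (AT3G50740), known to glucosylate lignin precursor aldehydes, had 129, 135 and 138 in sni1, against 56.2, 75.9 and 118 in wild type. The sni1 arrays lay close together and above wild type, whose replicate 3 came near to them. The log2 fold change was 0.73 ± 0.25 (limma adjusted p = 0.552 unblocked and 0.0610 blocked), and with the block it passed without both replicate 3 arrays (0.0305) but not without those of replicate 1 (0.191) or 2 (0.179). UGT72E2, the related enzyme of monolignol glucosides, had 25.8, 27.5 and 20.2 in sni1 and 35.7, 32.7 and 26.4 in wild type (-0.33 ± 0.25, adjusted p = 0.911), and UGT72E3 was at or under 2.25. The related UGT72B3 did not overlap, with 28.2, 28.4 and 23.1 in sni1 and 21.9, 17.6 and 17.4 in wild type (0.43 ± 0.25, adjusted p = 0.856).

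The flavonol glycosyltransferases overlapped between the genotypes. UGT78D1, which adds rhamnose, had 41.1 to 64.9 in sni1 and 31.0 to 80.9 in wild type, and UGT78D2, which adds glucose, had 40.7 to 47.8 in sni1 and 28.0 to 48.3 in wild type. UGT78D3, the arabinose enzyme, was at or under 7.24. Of the adjacent genes for hydroxycinnamate glucose esters, UGT84A3 had 67.3 to 156 in sni1 and 60.1 to 139.5 in wild type, UGT84A4 had 19.3 to 41.2 in sni1 and 26.9 to 40.7 in wild type, and UGT84A1 was at or under 1.13. UGT74B1, which builds the thioglucose core of glucosinolates, had 364, 309 and 210.4 in sni1, against 273, 284 and 159 in wild type. Each pair of UGT74B1 was higher in sni1, but the genotypes overlapped (0.31 ± 0.28, limma adjusted p = 0.934 unblocked and 0.135 blocked). UGT80B1, a sterol glucosyltransferase, was alike, at 104 to 130.3 in sni1 and 114 to 133 in wild type.

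The UGT73 family, several members of which are known to be induced by stress and to act on foreign compounds, had the highest median of the families with at least 5 members, 0.47 over 7 genes, of which 1 had a mean signal at or above 24.5. UGT73B1 (AT4G34138) had 68.7, 42.4 and 30.2 in sni1 and 31.6, 33.0 and 14.9 in wild type (0.76 ± 0.38, limma adjusted p = 0.806 unblocked and 0.121 blocked), higher in each pair but with overlapping genotypes. UGT73B5 (AT2G15480), known to limit the damage of the hypersensitive response, had 6.39, 16.8 and 2.39 in sni1, against 0.735, 1.62 and 0.986 in wild type. The genotypes did not overlap in UGT73B5, but all its wild-type values lay under the 10th percentile of their array. Its log2 fold change of 1.31 ± 0.48 (adjusted p = 0.585) was 0.58 with the 25th percentile as the added constant and 1.87 with a constant of 1. The adjacent UGT73B4 was at or under 2.45, and UGT73C2 (0.52), UGT73C7 (-0.49) and UGT73D1 (0.47) had signals of at most 14.6, with adjusted p from 0.886 to 0.961.

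Of the 5 UGT85A genes, 4 form a run. UGT85A2 had 133, 118 and 85.4 in sni1, against 108, 65.5 and 54.6 in wild type (0.58 ± 0.28, limma adjusted p = 0.784 unblocked and 0.0611 blocked). Its direct neighbour UGT85A5 had 101, 37.2 and 82.5 in sni1, against 84.1, 41.5 and 92.3 in wild type. UGT85A2 was higher in sni1 in every pair, while UGT85A5 followed the replicate number, low in replicate 2 of both genotypes. UGT85A4, which lies elsewhere, had 44.4, 49.8 and 52.1 in sni1 and 21.2, 49.2 and 38.3 in wild type (0.47 ± 0.30, adjusted p = 0.883). UGT85A3 and UGT85A7 overlapped, at 12.2 to 23.4 and 11 to 22.7 in sni1 and 15 to 24.1 and 13.2 to 40.4 in wild type.

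The remaining UGTs overlapped between the genotypes. UGT88A1 had 667, 869.8 and 609 in sni1 and 579, 889 and 695 in wild type. UGT71C4 had 211, 291 and 204 in sni1 and 259, 299 and 139 in wild type. Both were high in replicate 2 of either genotype. UGT71B1 had 116, 77.8 and 105 in sni1 and 84.1, 68.7 and 76.3 in wild type (0.35 ± 0.19, limma adjusted p = 0.831), higher in each pair. UGT76E11 had 33.1 to 70.3 in sni1 and 24.5 to 68.3 in wild type, and the nearby UGT76E12 (-0.61 ± 0.44) was at or under 2.09 except in wild-type replicate 3 (8.89). UGT71B5, UGT71B8, UGT71C1, UGT71C2, UGT76E1 and UGT76E2 had signals from 0.549 to 14.9, and the widest gap within a pair was in UGT71C2, at 0.942, 14.1 and 1.39 in sni1 and 14.3, 3.52 and 1.76 in wild type. Both cyclophilins were alike in the genotypes, CYP71 at 70.5 to 92.0 in sni1 and 75.4 to 99.9 in wild type, and CYP59 at 17.0 to 27.7 in sni1 and 16.3 to 27.9 in wild type.

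Replicate numbers separated some members that genotype did not. In limma's F-test of the replicate number beside genotype, 12 of 73 members differed, against 15.7% of all probe sets, a share near the background. CYP71B26 had the smallest adjusted p (0.00207), with 203, 240.1 and 75.6 in sni1 and 156, 256 and 89.9 in wild type. UGT84A3 (adjusted p = 0.00327) and UGT74B1 (0.00681) were also low in replicate 3 of both genotypes, and UGT85A5 (0.00689) was low in replicate 2. Of the 12 members 10 were lowest in replicate 3, as were 48.8% of the 3581 probe sets that differed. Replicate 3 of both genotypes also had the low 10th percentiles given above, and after each array was centred on its median 6 members differed, all 6 among the 12. The share of all probe sets after this centring is not given here, so the 6 are not read as a result about the members. The part of the array distributions in these differences was not tested further.

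**Figure D4:**
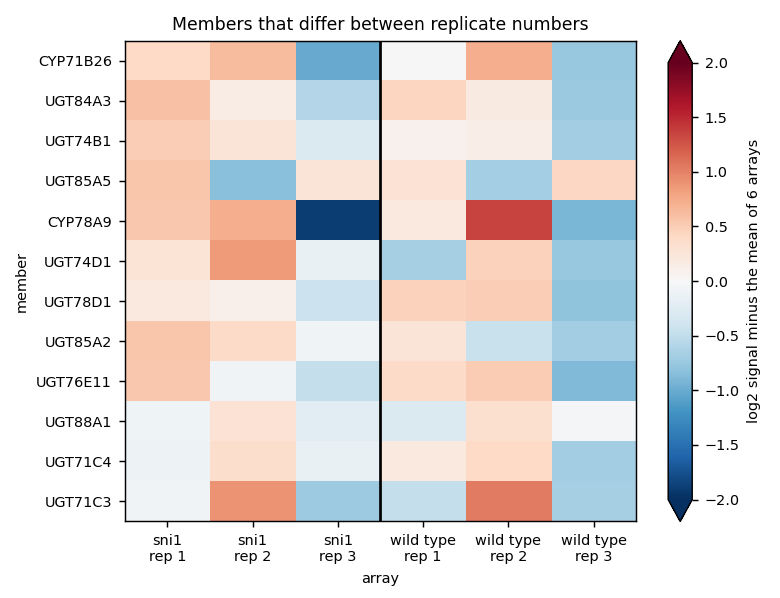
Log2(signal + 2.87) in each of the 6 arrays minus the mean of the 6, for the 12 members that differed between replicate numbers, ordered by adjusted p (red above, blue below the member's mean; sni1 arrays left of the line, wild type right). Replicate 3 is blue in both genotypes for most members, such as CYP71B26 with 75.6 in sni1 and 89.9 in wild type, and UGT85A5 is blue in replicate 2 instead.

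Partner enzymes in the same metabolism were looked up in 5 lists. As for the markers, measured means found in the annotation with a probe set of 1 gene, and the array may hold signals for others. The 14 glutathione transferases of the list, which conjugate oxidised or foreign compounds to glutathione, were all measured, but only 5 had a mean signal at or above 24.5. Of the 14, 3 had a positive and 11 a negative log2 fold change (median -0.16, beside -0.02 over all probe sets). None passed without the block, and GSTU18 passed as lower with it, at 222, 271 and 222 in sni1 and 321, 339 and 307 in wild type (-0.44 ± 0.14, limma adjusted p = 0.524 unblocked and 0.0337 blocked). That blocked call was lost without both arrays of replicate 1, 2 or 3 (0.143, 0.0675 and 0.140). Of 9 electron donors of P450s only the reductase ATR3 was measured, at 26.5 to 39.5 in sni1 and 24.2 to 31.8 in wild type. Of 6 flavonoid enzymes only DFR was measured, at 17.8 to 21.3 in sni1 and 21.4 to 28.1 in wild type, and of 13 enzymes of indole and glucosinolate synthesis only BCAT4, at 496 to 1023 in sni1 and 412 to 918 in wild type. These 3 genes did not pass in either fit. Of 21 P450s known under other symbols none had a probe set with 1 gene in the annotation.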

How the data were processed

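Total RNA was the source of the biotin-labelled material hybridised to ATH1 arrays, 3 of sni1 and 3 of wild type. The authors deposited linear signal intensities, 1 per probe set and array, and the submitters' processing notes name MAS5 (version and settings not given in the sources used here). All arrays shared 1 mean, about 100.0, after its lowest and highest values were trimmed. The number of arrays limits the precision. Of 22746 probe sets that are not controls, 13513 had 1 gene symbol in the platform annotation, 503 had several symbols or none, and 8730 had no entry. Symbols and gene order came from RefSeq's TAIR10.1 table.

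Log2(value + 2.87) was tested with limma 3.58.1 (lmFit and eBayes, whose prior followed the mean intensity) in R 4.3.3, with no filter on low signals, since the member rule sets none. Alternatives were other constants (12.2, the 25th percentile, and 1), a filter at a mean of 24.5, quantile normalization, median centring, no trend, a block for the replicate number and each array left out in turn. A blocked fit without both arrays of each number was added after seeing the data. Exact permutation tests used scipy 1.17.1 and figures matplotlib 3.10.9. The procedure was also run on simulated data with replicate differences built in, so that run cannot show whether the replicate numbers pair the samples here.

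The titles number the replicates of each genotype 1 to 3. Deviations from the genotype mean across probe sets correlated at 0.37, 0.30 and 0.46 between same-numbered arrays and from -0.32 to -0.02 between others, so the numbers were taken to pair the samples, a reading of the data since no label states it. Blocked values stand beside a result where they change the call or come near to the threshold.

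The rule for named genes took members past the threshold in either fit, those with the largest fold changes, highest means or largest differences between replicate numbers, the extremes of each subfamily and the members with a known role. Fold changes are printed for members at 0.3 or more in size and for neighbours of a called member. The members and lists were chosen with earlier results of these data known.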

Additional observations from a re-analysis of the deposited data

Results flagged for a closer look

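The member rule leaves out 5 probe sets that the annotation assigns to several genes. Of these 5, 2 were higher in sni1 in the fit with the replicate block, against 2.73% of all probe sets. The probe set annotated to both UGT73B2 and UGT73B3 had 114, 85.1 and 39.8 in sni1, against 33.0, 27.4 and 16.4 in wild type. The genotypes did not overlap there, and the log2 fold change was 1.46 ± 0.41 (SE without the block; limma adjusted p = 0.389 unblocked and 0.00554 blocked). Which of the genes the signal comes from cannot be told from this probe set. The probe set annotated to both CYP71B20 and CYP71B19, genes of the subfamily of CYP71B23, had 779.8, 359 and 348 in sni1, against 579, 288 and 241 in wild type. Its genotypes overlapped and its replicates differed widely, with a log2 fold change of 0.42 ± 0.40 (adjusted p = 0.938 unblocked and 0.0336 blocked). Groups of 3 arrays are too small for the test of single deviant arrays.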

How the results depend on the processing

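Over all probe sets 52 passed, against 914 with the replicate block, 1068 with the block and quantile normalization, 1369 with the block and the filter, and 8 without the intensity trend. With 1 array left out the count ran from 2 to 44, and with the block and both arrays of a number left out 406, 485 and 600. Of the members, 2 passed as higher, against 1 after quantile normalization, 0 without the trend, 8 with the block and the filter (of 34 members tested, beside 6.15% of probe sets) and 0 with any 1 array left out. With the block and both arrays of a number left out it was 2 to 3. As lower, 0 passed, and 1 with the block, whether alone or combined with quantile normalization or with the filter, and 0 to 1 with arrays left out. Between replicate numbers 12 members differed, against 6 after median centring (all among the 12) and 0 without the trend. Shares of all probe sets under these alternatives are not given here. Of 630 fold changes of 37 genes under alternatives, 592 kept direction and side of the threshold, 15 fell short of it, 16 newly passed and 7 turned. These were CYP71B16 without sni1 replicate 1 (-0.12; 0.91 without sni1 replicate 2) and without replicate 1 in the block (-0.055), CYP71B37 in that same blocked fit (0.083), CYP78A9 without sni1 replicate 3 (0.42) or wild-type replicate 2 (0.15; lowest -0.98), and UGT84B1 without sni1 replicate 2 (-0.0025) or wild-type replicate 3 (-0.088; highest 0.86). The UGT85A median was 0.47 over members above the filter and -0.01 over all. Causes were not tested. Each gene had 1 probe set, so averaging probe sets was not run. Signals under the 10th percentile of an array give no firm size of change.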
